A study of Homo sapiens with 12 samples.

Results

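The mouse genes of 12 xenograft tumours are described here, that is, the RNA of the host tissue that grew with the human tumour cells. Every row of the count tables whose identifier starts with ENSMUSG was taken, 54146 of 112389 human and mouse genes, with the library size counted from mouse rows only. Of these, 29888 had at least 1 count in some library and 13055 passed the filter on low counts and were tested.

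The tumours grew from MCFDCIS, a human breast cell line that forms lesions like ductal carcinoma in situ, injected under the skin of athymic nude mice and left for 2 weeks. Each of 4 groups held 3 tumours. One received palbociclib daily by gavage at 50 mg/kg for 2 weeks and one received vehicle for 2 weeks; these are the end-of-treatment groups. The other two were treated alike and then given a recovery time whose length is not stated. Cell line, host and injection site were common to all groups. The age and sex of the mice, and whether tumours of a group came from different mice, are not stated either. The p-values therefore reflect only how far these tumours differed from each other, which may be partly technical. Treatment was compared over 6 palbociclib and 6 vehicle tumours, with the stage (end of treatment or recovery) as a block.

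As background, a xenograft recruits host fibroblasts, blood vessels, macrophages and other white cells, and the surrounding skin and fat can be sampled with it. Athymic nude mice lack a working thymus and so have few mature T cells, while their myeloid, natural killer and B cells remain. Palbociclib inhibits the kinases CDK4 and CDK6, which drive cells from G1 into S phase by phosphorylating the retinoblastoma protein. Given by gavage, it is systemic, so host cells are exposed as well as tumour cells. The tables used here do not pair mouse identifiers with gene names, and 0 of them matched a symbol. Genes are therefore given by identifier, without a role, and the host cell types could not be checked against their markers.

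Mouse counts ranged from 1391023 to 2434651 per vehicle library and from 1989270 to 3483342 per palbociclib library. In each library 19133 to 22813 mouse genes had a count. Human counts ranged from 6613880 to 12352064. The rows that name no gene held 37.0% to 69.1% of all counts in vehicle libraries and 51.7% to 53.8% in palbociclib libraries. The human part carried epithelial markers in every library, with EPCAM at 105 to 293, KRT5 at 936 to 1995 and KRT14 at 812 to 1592 counts per 1000000 human counts. Vehicle end libraries 2 and 3 stood apart, with 5.32% and 11.2% of their human counts on mitochondrial genes against 0.674% to 2.64% elsewhere. Vehicle recovery library 2 had the lowest EPCAM and the lowest share of counts on unnamed rows. Results on genes are also given without these 3 libraries where that changed a call or moved a value. Such a fit keeps only 1 vehicle tumour at the end of treatment, so a call lost in it may reflect fewer tumours. The mouse share was computed without single libraries, not without these 3 together. Replicates of a group differed by more than counting noise in mouse genes, with a chi-square per degree of freedom of 4.66 to 13.8.

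The first question was how much host RNA the tumours held. Mouse genes took a larger share of the counts assigned to genes in palbociclib tumours, 20.3% ± 3.13 against 16.4% ± 1.37 in vehicle tumours (SD, n = 6 each). At the end of treatment the palbociclib libraries stood at 17.0%, 17.6% and 25.4% and the vehicle libraries at 16.5%, 15.5% and 17.4%. After recovery the palbociclib libraries stood at 19.0%, 21.6% and 21.4% and the vehicle libraries at 14.2%, 16.7% and 18.1%. On this share the recovery groups did not overlap, while at the end of treatment palbociclib library 1 lay below vehicle library 3. The difference of 3.94 percentage points had p = 0.01 by an exact two-sided permutation test within stages, over 400 arrangements. Within stages the differences were 3.53 points (exact permutation p = 0.2) and 4.34 points (exact permutation p = 0.1), where 3 tumours against 3 cannot give a p below 0.1. Without palbociclib end library 3, which had the highest share, the difference was 2.59 points (exact permutation p = 0.02). The stage at which the groups were apart depended on the denominator. As a share of all counts, unnamed rows included, vehicle recovery library 2, at 10.5%, lay above the palbociclib recovery libraries at 8.83%, 10.4% and 10.1%. On that scale the end-of-treatment groups were apart, at 7.83% to 11.9% with palbociclib and 5.38% to 7.79% with vehicle. In bulk tissue, more host cells, more RNA per host cell and fewer tumour cells cannot be told apart.

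**Figure D1:**
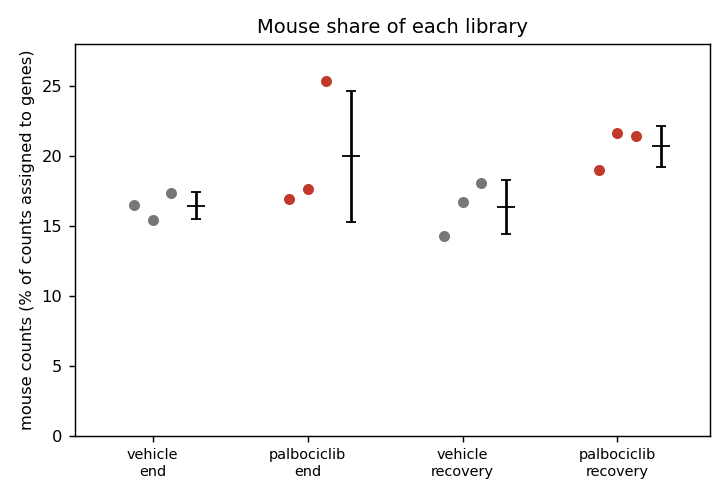
Mouse counts as a percentage of all counts assigned to genes (y axis) for the 3 tumours of each group (x axis; grey, vehicle; red, palbociclib), with black marks for the mean and SD, n = 3. The palbociclib recovery tumours, at 19.0% to 21.6%, lie above the vehicle recovery tumours at 14.2% to 18.1%, and palbociclib end library 3 is highest at 25.4%. As a share of all counts, unnamed rows included, the recovery groups overlap.

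Within the mouse RNA, 2 of 13055 genes passed at an adjusted p under 0.05 in the quasi-likelihood test of edgeR, adjusted by Benjamini-Hochberg, or 0.0153% of genes tested, with 1 in each direction (0.00766%). ENSMUSG00000024810 rose 2.22-fold under palbociclib and ENSMUSG00000029648 fell to 0.564 of its vehicle level. At an unadjusted p under 0.05 there were 1208 genes (9.25%), 492 higher (3.77%) and 716 lower (5.48%). The balance of directions depended on the tool and the scaling. DESeq2 called 26 genes higher and 91 lower, while edgeR called 38 higher and 2 lower with library sizes from human and mouse rows. With library sizes from human rows it called 192 higher and 4 lower, where the median of all mouse genes shifted by 0.41. The volcano plot of all tested genes shows these 2 genes and the next by p in each direction, which did not pass.

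**Figure D2:**
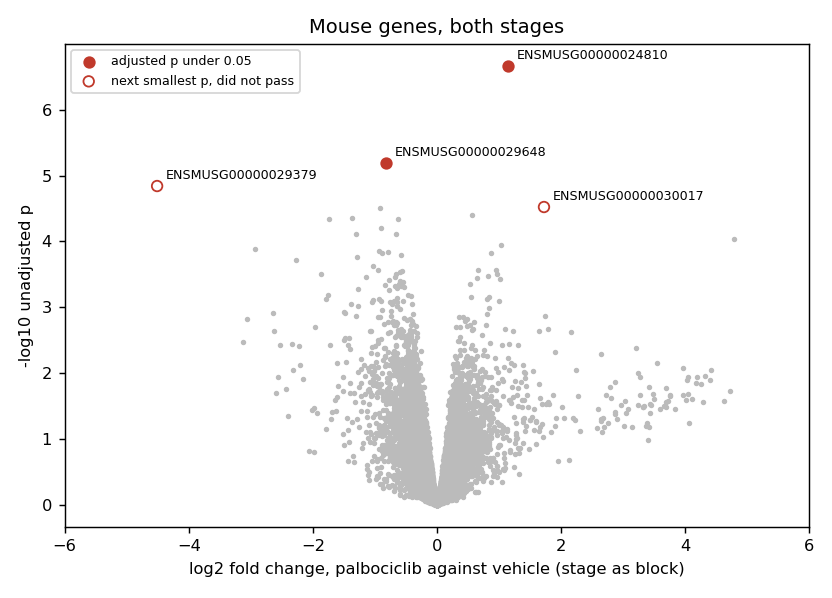
Each point is 1 of 13055 mouse genes, by its log2 fold change of palbociclib against vehicle with the stage as block (x axis) and -log10 of its unadjusted edgeR p (y axis). Filled red points passed at an adjusted p under 0.05, open red points are the next smallest p in each direction, and the loose cloud on the right holds genes with large fitted folds of which none passed.

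Gene levels are given as counts per 1000000 mouse counts (CPM), with the library size scaled by TMM. ENSMUSG00000024810 measured 298, 382 and 343 CPM in the palbociclib tumours at the end of treatment, where the vehicle tumours measured 192, 116 and 149 CPM. After recovery the palbociclib tumours measured 254, 236 and 193 CPM, where the vehicle tumours measured 124, 87.7 and 98.5 CPM. All 6 palbociclib tumours lay above all 6 vehicle tumours, the closest being palbociclib recovery library 3 at 192.7 and vehicle end library 1 at 192.3 CPM. Across the tested genes 27 (0.207%) were separated in this direction and 31 (0.237%) in the other. The treated mean was 284 ± 70.5 CPM and the vehicle mean 128 ± 38.1 CPM (SD, n = 6 each), on raw counts of 650 to 1199 and 164 to 417. The log2 fold change was 1.15 ± 0.13 (SE, edgeR adjusted p = 0.00282), with a 95% interval of 0.87 to 1.42.

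The rise in ENSMUSG00000024810 had nearly the same size at each stage. The gene was picked by its p over both stages and for the same sign at both, so this likeness is no separate support. Its log2 fold change was 1.16 ± 0.19 at the first stage and 1.14 ± 0.19 at the later one (SE), although neither stage passed alone (edgeR adjusted p = 0.148 and 0.117). The difference between the stages was -0.02 ± 0.27 (SE, edgeR unadjusted p = 0.942). The vehicle means were 152 ± 38.5 and then 103 ± 18.7 CPM and the palbociclib means 341 ± 42.1 and then 228 ± 31.6 CPM (SD, n = 3), and the change with stage was not tested. Leaving out any 1 of the 12 libraries kept the call. It did not pass with no stage block (1.15, edgeR adjusted p = 0.119), nor without vehicle end libraries 2 and 3 and vehicle recovery library 2 (0.95). The latter fit keeps 1 vehicle tumour at the end of treatment.

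ENSMUSG00000029648 measured 132, 132 and 105 CPM in the palbociclib tumours at the end of treatment, against 192, 290 and 202 CPM with vehicle. In recovery tumours it measured 174, 193 and 132 CPM, against 301, 265 and 285 CPM with vehicle. The groups did not overlap within either stage, but palbociclib recovery library 2, at 193.4 CPM, lay just above vehicle end library 1, at 191.9 CPM. The means were 145 ± 32.6 and 256 ± 47.2 CPM (SD, n = 6 each). The log2 fold change was -0.83 ± 0.12 (SE, edgeR adjusted p = 0.0424), with -0.89 ± 0.18 at the first stage and -0.77 ± 0.18 at the later one. The difference between stages was 0.12 ± 0.25 (SE, edgeR unadjusted p = 0.636). This gene was picked in the same way, so the likeness of its stages is no separate support either.

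The call on ENSMUSG00000029648 was close to the threshold. It passed in 3 of the 12 fits that left out 1 library, those without palbociclib recovery library 2, vehicle end library 1 or vehicle end library 3. Its log2 fold change lay between -0.89 and -0.72 in these 12 fits. With the mouse share of each library as a covariate it was -0.65 (edgeR adjusted p = 0.795). Without vehicle end libraries 2 and 3 and vehicle recovery library 2 it was -0.75 and did not pass, with 1 vehicle tumour left at the end of treatment.

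**Figure D3:**
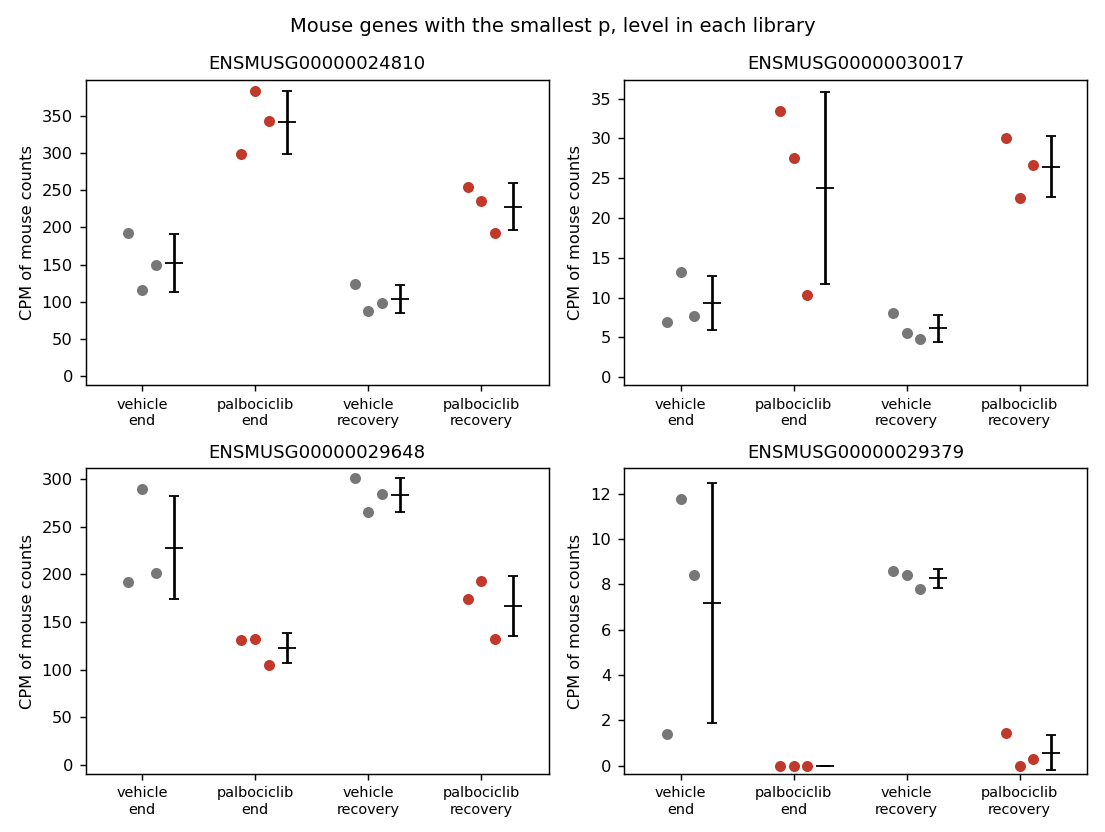
Level in CPM of mouse counts (y axes, from 0) of the 2 genes that passed (left) and the next gene by p in each direction (right), for the 3 tumours of each group (grey, vehicle; red, palbociclib), with black marks for the mean and SD, n = 3. ENSMUSG00000024810 is at 193 to 382 in palbociclib against 87.7 to 192 in vehicle tumours, and ENSMUSG00000029379 is at 0 in all palbociclib tumours at the end of treatment.

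The next gene by p in each direction did not pass. ENSMUSG00000029379 had 0 counts in all 3 palbociclib tumours at the end of treatment, against 3, 17 and 12 counts in vehicle tumours. In recovery tumours it had 4, 0 and 1 counts with palbociclib, against 16, 20 and 13 with vehicle. Only the library with 4 counts, at 1.45 CPM, reached above the lowest vehicle library, vehicle end library 1 at 1.38 CPM. With at most 4 counts in a palbociclib library and a filter minimum of 10, the gene passed the filter only through vehicle libraries. Its fold is therefore given as a description. Its mean level lay at percentile 0.498 of the tested genes, near the floor. Taking 3 counts as the floor over the end-of-treatment palbociclib group gave a level of 0.393 CPM, here without TMM scaling. The gene was at least 16.1-fold lower in that group than the pooled vehicle level of 6.32 CPM on the same scale. That bound takes the 32 vehicle counts as exact. Single libraries moved this bound: it was 8.76-fold without palbociclib end library 3, 10.6-fold without vehicle end library 2 and 25.9-fold without vehicle end library 1. Vehicle end libraries 2 and 3 held 29 of the 32 vehicle counts, and without both the vehicle group has 3 counts, no more than the floor, which gives no fold. The fit over both stages gave edgeR adjusted p = 0.0627. It passed in 3 of 12 fits that left out 1 library, and DESeq2 gave it no adjusted p.

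ENSMUSG00000030017 measured 33.5, 27.5 and 10.3 CPM in the palbociclib tumours at the end of treatment, against 6.92, 13.2 and 7.70 CPM with vehicle. In recovery tumours it measured 30.1, 22.5 and 26.7 CPM, against 8.06, 5.48 and 4.80 CPM with vehicle. Palbociclib end library 3 was the one palbociclib tumour below a vehicle tumour, vehicle end library 2. The log2 fold change was 1.72 ± 0.29 (SE, edgeR adjusted p = 0.0665). Without palbociclib end library 3 it was 1.94 (edgeR adjusted p = 0.002), and with the mouse share as covariate 2.39 (edgeR adjusted p = 0.00611). It passed in 2 of 12 fits that left out 1 library, with edgeR adjusted p from 0.002 to 0.208. It did not pass by limma voom (adjusted p = 0.211), nor without vehicle end libraries 2 and 3 and vehicle recovery library 2 (1.92). The latter fit keeps 1 vehicle tumour at the end of treatment.

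Any human reads assigned to mouse genes would add to these values, and the ratio of human to mouse counts differed between treatments. The mean log2 ratio was 1.98 in palbociclib and 2.35 in vehicle tumours, a difference of -0.37. In counts per 1000000 human counts, ENSMUSG00000024810 lay at 54.3 to 117 with palbociclib and 17.1 to 37.3 with vehicle, with no overlap. On the same scale ENSMUSG00000029648 lay at 27.0 to 53.2 and 37.2 to 61.9, which do overlap. With human library sizes its log2 fold change was -0.42 (edgeR adjusted p = 0.089), where the median of all mouse genes shifted by 0.41. The share of human reads in any single mouse row was not tested, since that needs the human counterpart of each gene.

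A set of mouse genes had large fitted folds but did not pass. Of the tested genes 68 had a log2 fold change above 2.5 and 9 one below -2.5, a limit chosen after the values were seen, so they are described without a test. Of the 68, 64 had their highest level in palbociclib end library 3 and the other 4 in palbociclib recovery library 3. Together they held 0.170%, 0.00558% and 1.25% of mouse counts in the palbociclib end libraries and 0.00394%, 0.179% and 0.413% in the palbociclib recovery libraries. The vehicle libraries held 0.0901%, 0.00287% and 0.00467% at the end of treatment and 0.00680%, 0.0420% and 0.00534% in recovery tumours. Low shares occurred in both treatments, while the highest vehicle share, 0.0901%, lay below the palbociclib shares of 0.170%, 0.179%, 0.413% and 1.25%. The libraries of a group differed widely. Because the 68 genes were chosen for a high fold with palbociclib, these shares cannot test an effect of treatment. The smallest edgeR adjusted p among the 68 was 0.0934 and their median standard error was 1.34 on the log2 scale. Palbociclib end library 3, where most of them peaked, also had the highest mouse share, and the part of that library in the fitted folds was not tested.

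Each stage was also tested alone, from 4 group means in 1 fit. At the end of treatment 0 of 13055 mouse genes passed by edgeR (0% called), with 1024 at an unadjusted p under 0.05 (7.84%), 393 higher (3.01%) and 631 lower (4.83%). After recovery 0 passed (0% called), with 940 at an unadjusted p under 0.05 (7.20%), 451 higher (3.45%) and 489 lower (3.75%). DESeq2 called 43 genes at the end of treatment, 4 higher and 39 lower, and 41 after recovery, 29 higher and 12 lower. With limma voom the count was 0 at each stage. For the difference between the stage effects edgeR called 0 genes (0% called; 696, or 5.33%, at an unadjusted p under 0.05), DESeq2 5 and limma voom 0. Without vehicle end library 1 the end-of-treatment count was 62, of which 55 were lower.

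The stage comparisons share no libraries, so their values can be set side by side. Both come from the same fit, which shares its estimate of the spread of each gene, so their p-values are not independent. Of the 631 genes with a negative value and an unadjusted p under 0.05 at the end of treatment, 472 (74.8%) also had a negative value after recovery, with a median of -0.21. Of the 393 higher genes, 232 (59.0%) had a positive value after recovery, with a median of 0.08. Chosen the other way, by an unadjusted p under 0.05 in recovery tumours, 316 of 489 lower genes (64.6%) and 242 of 451 higher genes (53.7%) had the same sign at the end of treatment. Over all tested genes 6826 (52.3%) had the same sign at both stages. At an unadjusted edgeR p under 0.05 at both stages there were 153 of 13055 genes, 128 of them (83.7%) with the same sign. Each stage alone had 7.84% and 7.20% of genes under that limit, and the number expected at both without an effect was not computed.

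**Figure D4:**
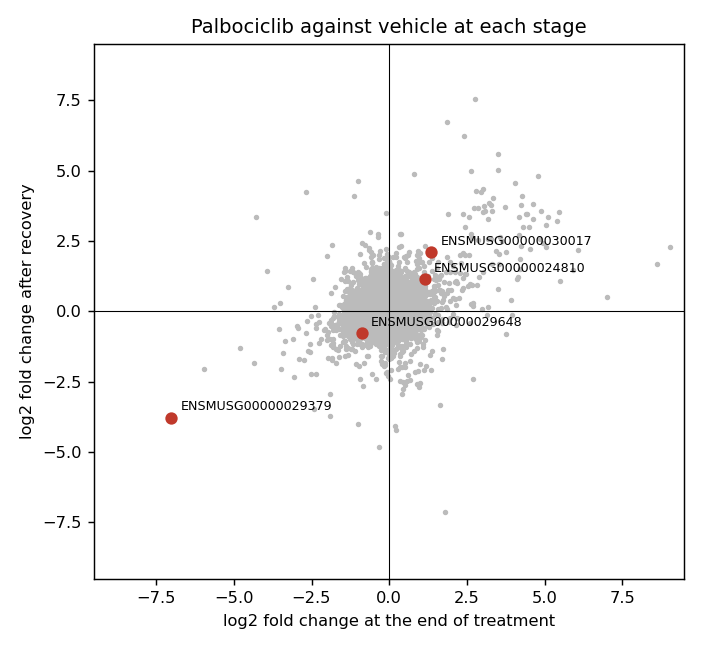
Log2 fold change of palbociclib against vehicle for 13055 mouse genes at the end of treatment (x axis) and in recovery tumours (y axis). Red marks the 4 genes given by identifier, which were picked for the same sign at both stages. ENSMUSG00000024810 sits at 1.16 and 1.14, ENSMUSG00000029648 at -0.89 and -0.77, and ENSMUSG00000029379, at 0 counts in 1 group, has a fitted value that depends on the fit and is no bound.

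Dividing host cells were looked at through identifier lists, since CDK4 and CDK6 act in G1. The lists are the mouse marker pairs packaged with scran for calling cell cycle phase, reduced to genes that mark 1 phase and are always the higher member of their pairs. They were chosen after the files were seen. They held 50 tested genes for G2/M, 94 for S and 51 for G1. None of these genes passed by edgeR at either stage or over both, against the 0.0153% called over both. Of the 50 G2/M genes 40 (80.0%) had negative values at the end of treatment, their median being -0.32 on the log2 scale, and 32 (64.0%) after recovery, with a median of -0.11. Over all tested genes 51.2% and 50.9% were negative, with medians of -0.01 and -0.01.

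The G2/M genes stood at a mean log2 CPM of 4.53, 4.48 and 4.43 in the palbociclib tumours at the end of treatment, against 4.75, 4.83 and 4.77 with vehicle. In recovery tumours they stood at 4.77, 4.53 and 4.77, against 4.65, 4.92 and 4.67 with vehicle. The groups were apart at the end of treatment, also for vehicle end library 1 alone, and overlapped after recovery. The difference between the stage effects had a median of 0.20 over the list, and none of its members passed that test. The S list had medians of 0.00 and 0.00 and the G1 list -0.02 and 0.00, both near the medians of all genes. At an unadjusted p under 0.05, 8 of the 50 G2/M genes (16.0%) were lower and 2 higher at the end of treatment, where 4.83% of all genes were lower. The G1 and S lists also lay above that share, with 5 of 51 (9.80%) and 9 of 94 (9.57%) lower. After recovery 2 of the 50 G2/M genes (4%) were lower and 0 higher, against 3.75% and 3.45% of all genes.

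The human list for G2/M from the same source, 75 tested genes in the tumour cells, had a median of -0.22 at the end of treatment and -0.18 in recovery tumours. Of these, 21 (28%) passed as lower at the end of treatment and 0 in recovery tumours, where 1.70% and 0.00537% of all human genes did. The human G1 list had 18 of 85 genes (21.2%) and the S list 11 of 90 (12.2%) that passed as lower at the end of treatment. The mouse and human values come from the same libraries and were not tested against each other. The part of human reads in the mouse G2/M values was not tested. Over both stages the mouse G2/M median was -0.19, and -0.07 without vehicle end libraries 2 and 3 and vehicle recovery library 2. With library sizes that include human rows it turned to 0.15, where the median of all mouse genes stood at 0.34.

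**Figure D5:**
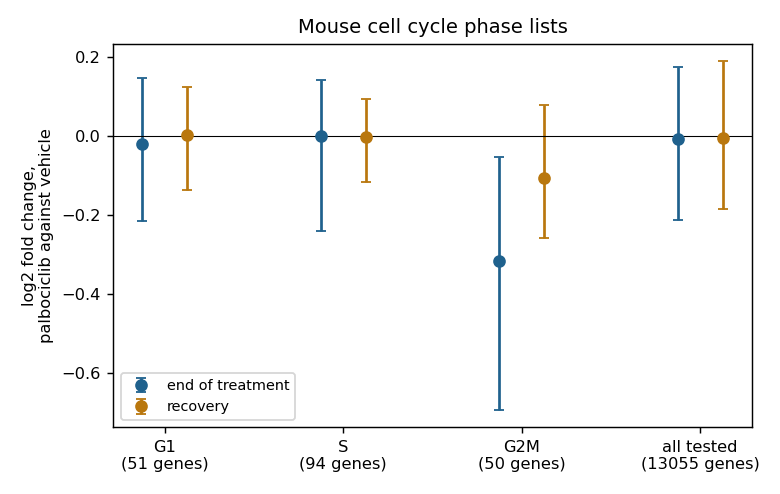
Median log2 fold change of palbociclib against vehicle (y axis; bars, the interquartile range over genes) for mouse genes of 3 cell cycle phase lists and for all tested mouse genes (x axis), at the end of treatment (blue) and in recovery tumours (orange). With mouse library sizes the G2/M list is at -0.32 and -0.11, while the G1 and S lists and all genes lie at -0.02 to 0.00. Over both stages the G2/M median is -0.19. With library sizes that include human rows it is 0.15, where the median of all mouse genes is 0.34.

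The precision of the comparison sets what could be seen. The median standard error of a log2 fold change was 0.18 over both stages, 0.25 at the end of treatment and 0.24 in recovery tumours, with a biological coefficient of variation of 0.24. For 10585 of 13055 mouse genes (81.1%) the 95% interval over both stages lay within a 2-fold change in either direction. Genes were split into 3 classes of equal size by their mean level. In the lowest class this held for 54.8%, with a median standard error of 0.32, and in the highest for 96.1%, with 0.12. Genes at an unadjusted p under 0.05 made up 7.75%, 9.26% and 10.8% of the low, middle and high classes. In the middle class 134 were higher and 269 lower, in the high class 171 and 297, and in the low class 187 and 150.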

How the data were processed

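RNA of 12 tumours was sequenced, and the authors deposited raw counts per Ensembl gene, human and mouse in 1 file per tumour. Builds GRCh38 and GRCm38 and the tools STAR, cutadapt, edgeR and CASAVA 1.8 are listed, without roles, per the submitters' processing notes. How reads were counted, by strand or not, and what was done with reads matching both genomes, is not stated, so overlapping, antisense and near-identical genes are uncertain. The 4 rows that name no gene were left out, and 713 repeated rows with identical counts were removed. Samples were grouped by the labels.

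Mouse genes were kept by filterByExpr (minimum count 10, minimum total 15), scaled by TMM (trimmed mean of M-values) on mouse library sizes and tested in R 4.3.3 with edgeR 4.0.16 (glmQLFit, robust; glmQLFTest) with stage and treatment as terms, or with 4 group means. An adjusted p (Benjamini-Hochberg over all genes tested) under 0.05 counts as passing. Each standard error is the log2 fold change divided by the square root of F. The steps were tested on simulated data. Alternatives used DESeq2 1.42.0, limma 3.58.1, other filters, scalings, library sizes and covariates, and left out libraries. Lists came from scran 1.30.0.

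The members and lists were chosen with earlier results of these data known. With no mouse symbols, the rule named at most 2 identifiers per direction, those with the smallest p, a mean log2 CPM of at least 1 and the same sign at both stages. The 28 lists of mouse symbols could not be matched.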

Additional observations from a re-analysis of the deposited data

How the results depend on the processing

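The count of 2 mouse genes over both stages was 83 with no filter on low counts, 117 by DESeq2 (26 higher, 91 lower), 40 with library sizes from human and mouse rows (38 higher, 2 lower) and 196 from human rows only (192 higher, 4 lower), the last 2 without scaling factors and chosen in that form after seeing the data. It was 0 with no stage block, 1 as the mean of stage effects from 4 group means, and 0 without vehicle end libraries 2 and 3 and vehicle recovery library 2. Leaving out 1 library gave 1 to 40. The count was 40 without vehicle end library 1, 17 without vehicle end library 3 and 4 without palbociclib recovery library 2. It was 2 without palbociclib end library 3 or palbociclib recovery library 1, and 1 without any other. The fits with 2 calls did not keep ENSMUSG00000029648. Beside ENSMUSG00000024810 they called ENSMUSG00000030017 without palbociclib end library 3 and ENSMUSG00000029379 without palbociclib recovery library 1. In the same order of the first 4 settings, the count of 0 at the end of treatment was 288, 43, 1 and 1, and that of 0 after recovery 159, 41, 40 and 61. After recovery it was also 15 with only the groups compared, 1 with the mouse share as covariate and 7 without the 3 vehicle libraries. Leaving out 1 library gave 0 to 62 at the end of treatment, where palbociclib end library 1 gave 1, and 0 to 10 after recovery, the highest without vehicle end library 2. The difference between stages gave 73 with no filter, 5 by DESeq2 and 0 to 1 without 1 library. The cause of these shifts was not tested. A filter of 1 CPM in 6 libraries kept 16167 genes and called 3. ENSMUSG00000024810 passed in 22 of 24 alternatives, ENSMUSG00000029648 in 9 of 24, with the same direction in all; ENSMUSG00000030017 passed in 7 of 24 and ENSMUSG00000029379 in 7 of 23. The fold bound of ENSMUSG00000029379 without libraries was also computed after seeing the data.

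The mouse share difference lay between 2.59 and 4.69 points without 1 library (exact permutation p of 0.005 to 0.045). It was 2.10 points over all counts (exact permutation p = 0.045) and 3.64 without human mitochondrial genes (exact permutation p = 0.04). Leaving out genes likely to hold human reads, and mouse mitochondrial genes, was not run, since both need mouse gene names. No paired analysis was possible because the labels give no replicate numbers shared between groups.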
